A study of Mus musculus with 4 samples.

Results

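The genes described here are the mouse ligands of the chemokine receptor Cxcr2, the receptor itself and the granulocyte growth factor Csf3. They were chosen by symbol, as rows of the deposited count matrix named Cxcl1, Cxcl2, Cxcl3, Cxcl5, Cxcl15, Ppbp, Csf3 or Cxcr2, and all 8 of the 8 symbols were found among 30905 genes. Prostates of genetically modified mice were dissociated with collagenase type II and TrypLE and read by droplet single-cell RNA sequencing with a 3' kit, which counts unique molecular identifiers (UMIs), each standing for 1 captured RNA molecule. There were 4 groups with 1 library each. Trp53-intact mice were 4 months old, Trp53-intact ADT mice 5.5 months, Trp53-deleted mice 3.5 months and Trp53-deleted ADT mice 5.5 months. The genotype label adds the letters PC to Trp53, taken here to mark a deletion restricted to the prostate. On that reading immune and other incoming cells were not its target. The labels use the letters ADT alone, taken here to mean androgen deprivation therapy. The number of mice behind a library is not stated.

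The ADT mice were also the older ones and no group has a further library. Effects of ADT, of age and of the single library cannot be told apart, and neither can those of genotype and library. Differences are therefore given by size, with intervals that cover counting error only, and no test between groups was possible. Lists of 4 values follow the order Trp53-intact, Trp53-intact ADT, Trp53-deleted, Trp53-deleted ADT.

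Cxcr2 is a G protein-coupled receptor on neutrophils, the short-lived phagocytes that leave the blood first in acute inflammation. Its ligands carry a glutamate-leucine-arginine motif and form gradients that draw these cells into tissue, where neutrophils themselves can release more ligand. Csf3, also called G-CSF, drives the production of neutrophils in the bone marrow and their release. In the mouse the ligands are made by epithelium, stroma and myeloid cells, and many of them are induced through NF-kB by interleukin 1, tumour necrosis factor and interleukin 17.

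The 6 ligand genes lie in 1 cluster on chromosome 5, all on the plus strand of GRCm38. They run in the order Cxcl5 (chr5:90759360-90761624), Ppbp (chr5:90768518-90770063), Cxcl3 (chr5:90786103-90789600), Cxcl15 (chr5:90794534-90803067), Cxcl1 (chr5:90891241-90893115) and Cxcl2 (chr5:90903871-90905938). Cxcr2 lies on chromosome 1 (chr1:74153989-74161246) and Csf3 on chromosome 11 (chr11:98701263-98703629). The promoters of Cxcl1, Cxcl2 and Cxcl3 are shown because they held matches to a kB site, the form of sequence that NF-kB binds, and that of Cxcl15 is shown as a neighbouring ligand gene with another distribution. The lines give 100 bases of the plus strand from the RefSeq table on GRCm38.p6, ending just before the RefSeq or GENCODE start, whichever lies further upstream, at chr5:90891141-90891240, chr5:90903771-90903870, chr5:90786001-90786100 and chr5:90794434-90794533. Capitals mark the stretch covered by matches to the kB consensus.
Cxcl1: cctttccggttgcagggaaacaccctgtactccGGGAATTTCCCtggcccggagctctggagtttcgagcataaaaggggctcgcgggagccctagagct
Cxcl2: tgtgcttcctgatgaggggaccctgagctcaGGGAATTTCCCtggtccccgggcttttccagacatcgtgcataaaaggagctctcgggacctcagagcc
Cxcl3: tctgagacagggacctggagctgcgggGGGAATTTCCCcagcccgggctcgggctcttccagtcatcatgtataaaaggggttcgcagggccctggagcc
Cxcl15: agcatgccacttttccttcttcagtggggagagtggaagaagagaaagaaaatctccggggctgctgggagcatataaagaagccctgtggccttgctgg

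The kB consensus, 10 bases long, was searched on both strands in a window from 250 bases before to 50 bases after each RefSeq start. It was present in 1480 of 32851 promoters (4.51%) and in 3 of the 6 member promoters in the table, those of Cxcl1, Cxcl2 and Cxcl3. Each of the 3 held 2 overlapping matches, 1 on each strand and shifted by 1 base. The stretch between the matches and the RefSeq start was 60 bases in Cxcl1, 86 in Cxcl2 and 62 in Cxcl3. The printed lines of Cxcl1 and Cxcl2 end at the GENCODE start, short of the RefSeq start, and so show fewer bases after the matches. Cxcl15, Ppbp and Cxcr2 had no such match in this window, and the promoters of Cxcl5 and Csf3 were not analysed here. A match describes the letters of the window and says nothing of binding in these cells.

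After filtering, 7485, 7222, 5338 and 8810 cells were kept, with a median of 5430, 4147, 4439 and 5647 UMIs per cell. Classes of cells carry the ending "-like", since marker RNA is their only basis. The members and a list of other recruitment genes were left out of the genes that drove the clustering. Free RNA in the droplets gives each class some UMIs of genes it does not express, so B-like cells, which are not a known source of these ligands, are given as background. The libraries differed in makeup. Luminal-like cells numbered 1196, 13, 37 and 2, and unnamed clusters held 5.50%, 16.7%, 1.97% and 28.3% of cells. In Trp53-deleted ADT the unnamed clusters held 52.6% of all UMIs, most of it in cluster 37, a set of 649 cells led by Ptn, Cdkn2a, Postn and collagen genes, of which 648 came from this library. The labels were checked by Trp53 itself, which stood at 56.3, 87.0, 16.2 and 17.7 CPM (the UMIs of a gene per 1000000 UMIs of the class) in luminal progenitor-like cells, and was thus lower in both deleted libraries. The deleted part of the gene is not given in the labels, and 3' reads may lie outside it.

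Neutrophil-like cells made up 9.81% (95% Clopper-Pearson interval 9.14 to 10.5), 15.6% (14.8 to 16.5), 14.8% (13.9 to 15.8) and 5.36% (4.90 to 5.85) of cells. They numbered 734, 1128, 790 and 472. Trp53-deleted ADT held the smallest share and Trp53-intact ADT and Trp53-deleted, whose intervals overlap, the largest. With ADT the share was 5.81 points higher in the Trp53-intact pair and differed by -9.44 points in the Trp53-deleted pair. Among immune-like cells alone the shares were 20.9%, 33.9%, 27.3% and 10.6%, in the same order of size.

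The class rested on all 13 of its 13 markers in every library, and their summed level was 69935, 72269, 43439 and 49406 CPM. The same sum in luminal progenitor-like cells was between 34.8 and 144 CPM. Since these markers also named the class, their level is no separate check of the name. S100a8, S100a9 and Csf3r are both among these markers and on the recruitment list. S100a8, a subunit of calprotectin and among the most abundant neutrophil proteins, stood at 22400, 25703, 11645 and 14522 CPM. Csf3r, the receptor of Csf3, was at 979, 1700, 1246 and 1174 CPM. Secretory genes of the seminal vesicle, a neighbouring gland, summed to 155, 45.1, 1839 and 30.8 CPM in the neutrophil-like cells, and their part in the levels below was not tested.

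The class joined cluster 7, led by S100a8 and its partners (569, 887, 508 and 382 cells), and cluster 19, led by the interferon-induced genes Rsad2, Slfn4 and Ifit1 (165, 241, 282 and 90 cells). An additional cluster led by Prok2, a chemokine-like peptide that neutrophils make, stayed unnamed because its marker score fell short. It held 50, 319, 70 and 17 cells, which is 0.668%, 4.42%, 1.31% and 0.193% of cells. Counted with it, the share was 10.5%, 20.04%, 16.1% and 5.55%. At a finer clustering resolution the Trp53-deleted share was 6.05%, because 441 of its cells went to a cluster led by Ptgs2, Olr1, Il1r2 and Mmp9 that the naming rule left unnamed. The higher share of Trp53-deleted over Trp53-intact without ADT, 4.99 points, then became -3.72 points, and the difference with ADT in the Trp53-deleted pair became -0.75 points.

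**Figure D1:**
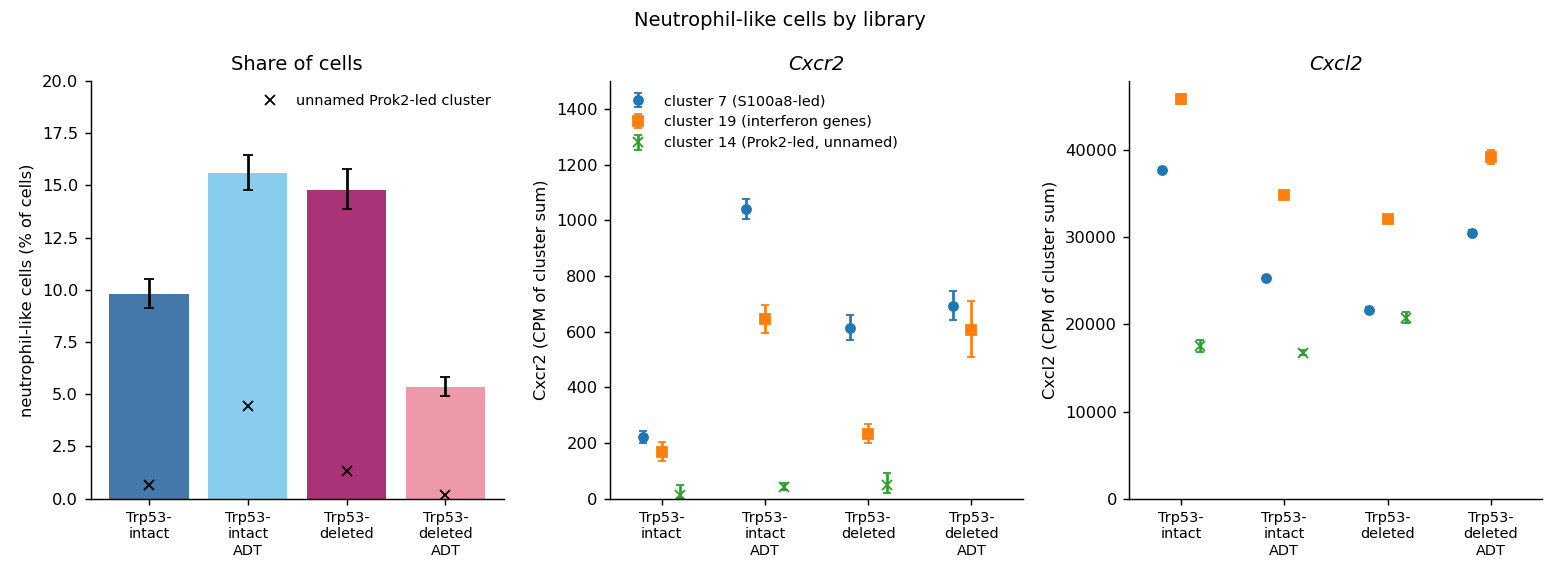
Left, share of cells that were neutrophil-like in each library (bars, % of kept cells, with 95% Clopper-Pearson intervals) and the share of the unnamed Prok2-led cluster (crosses). Middle and right, Cxcr2 and Cxcl2 in CPM of the cluster sum (95% Poisson intervals) for clusters 7, 19 and 14, where a sum of under 50 cells is not drawn. Cxcr2 was lowest in Trp53-intact in clusters 7 and 19, with an interval that overlaps that of Trp53-deleted in cluster 19. Cxcl2 was higher in cluster 19 than in cluster 7 in each library.

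Cxcr2 was held almost wholly by neutrophil-like cells, which carried 93.1%, 95.2%, 95.1% and 92.1% of its UMIs. Its level there was 209 CPM (95% Poisson interval 191 to 228), 950 (920 to 980), 459 (430 to 490) and 676 (631 to 724). Trp53-intact was the lowest library and Trp53-intact ADT the highest, and none of the 4 intervals overlap. In macrophage-like cells Cxcr2 was between 0.566 and 1.51 CPM, and in B-like cells it did not pass 3.18 CPM.

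The receptor was thus 4.55-fold higher with ADT in the Trp53-intact pair (95% conditional interval 4.15 to 5.00), a log2 ratio of 2.16. In the Trp53-deleted pair it was 1.47-fold higher (1.34 to 1.62), a log2 ratio of 0.55, under the 1.5-fold size used here to call a difference. Alternative settings gave log2 ratios of 0.56 to 1.01 there, so whether it passes that size depends on the setting. Without ADT it was 2.20-fold higher in Trp53-deleted than in Trp53-intact (1.97 to 2.46), whereas with ADT the log2 ratio between the genotypes was -0.49. No replicate stands behind these sizes.

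Cells with at least 1 Cxcr2 UMI made up 38.8%, 82.5%, 48.5% and 65.3% of neutrophil-like cells. After each cell was thinned to 1000 UMIs, with shallower cells left out, the shares were 16.6%, 52.9%, 31.9% and 41.7%, in the same order. The B-like background was at most 1.29% of cells with a UMI, at a median of 3793 to 5544.5 UMIs per cell against 2600 to 3569.5 in the neutrophil-like cells. Trp53-intact had the lowest level in both clusters of the class. Cluster 7 stood at 222, 1041, 612 and 694 CPM, and the interferon-gene cluster 19 at 166, 644, 231 and 604 CPM. In cluster 19 the intervals of Trp53-intact (135 to 203) and Trp53-deleted (199 to 266) overlap. A Cxcr2 UMI was found there in 30.9% of Trp53-intact cells and 29.1% of Trp53-deleted cells. The Prok2-led cluster, by contrast, held 13.8, 42.3 and 48.0 CPM in the first 3 libraries.

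Cxcl2, also called MIP-2, is a ligand that myeloid cells make within hours of stimulation. It was the most abundant RNA of the neutrophil-like cells in 3 libraries and ranked 2 in Trp53-intact ADT, with 3.97%, 2.75%, 2.59% and 3.22% of their UMIs. Since 3' UMIs count molecules whatever their length, this rank is not set by gene length. The level was 39655, 27526, 25857 and 32207 CPM. The extremes lay within 1.53-fold of each other, a narrower range than that of Cxcr2 in the same cells.

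Nearly every neutrophil-like cell carried Cxcl2, with 98.9%, 98.7%, 94.3% and 94.3% of cells having a UMI and a median of 88, 80, 37.5 and 70 UMIs per cell. Of the B-like cells, 27.4%, 25.1%, 25.7% and 32.3% had a Cxcl2 UMI. Of the neutrophil-like cells with a Cxcr2 UMI, 98.2%, 98.8%, 94.0% and 94.5% also had Cxcl2, which is close to the share of Cxcl2 over all of the class. The interferon-gene cluster 19 held more Cxcl2 (45896, 34866, 32049 and 39194 CPM) than cluster 7 (37688, 25344, 21711 and 30533 CPM) in each library. The Prok2-led cluster held 17472, 16770 and 20786 CPM in the first 3 libraries.

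Macrophage-like cells were a further holder of Cxcl2, at 2567 CPM (2542 to 2592), 2908 (2859 to 2957), 1191 (1162 to 1222) and 3305 (3283 to 3326). Trp53-deleted was the low library here, and the other 3 lay between 2567 and 3305 CPM. The level was 2.77-fold higher with ADT in the Trp53-deleted pair (2.70 to 2.85) and 2.15-fold lower in Trp53-deleted than in Trp53-intact without ADT. Different clusters held most of the class. Cluster 23, led by Ccl8 and Folr2, had 1180, 79, 553 and 57 cells, and cluster 9, led by Cx3cr1 and Ms4a4c, had 84, 169, 45 and 2089 cells. Cluster 23 stood at 2429, 4783, 1253 and 4308 CPM, and cluster 9 at 5262, 2900, 1380 and 3342 CPM. Trp53-deleted was lowest in both, in cluster 9 on 45 cells, under the minimum of 50 cells used for class sums.

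The share of the library's Cxcl2 UMIs shows which class held most of it. Neutrophil-like cells carried 57.0%, 69.1%, 66.7% and 24.0%, whereas macrophage-like cells carried 24.2%, 8.25%, 7.89% and 56.4%. In Trp53-deleted ADT, the library with the smallest neutrophil share and with 27.0% macrophage-like cells, the larger part of this ligand's RNA was thus in macrophage-like cells.

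Other classes held less Cxcl2. Dendritic-like cells stood at 1738, 1979, 1551 and 1002 CPM and luminal progenitor-like cells at 620, 691, 681 and 783 CPM. The epithelial level was nearly level across libraries, and above that of B-like cells, which was 51.9, 70.3, 74.7 and 119 CPM. Fibroblast-like cells were at 142, 84.2, 55.1 and 78.6 CPM, near the B-like level in 3 libraries.

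Cxcl3, a close paralog of Cxcl2, was at a far lower level than Cxcl2 in neutrophil-like cells and varied more between libraries there. In neutrophil-like cells it stood at 774 CPM (739 to 810), 442 (422 to 463), 104 (89.9 to 119) and 183 (160 to 209). Both Trp53-deleted libraries were below both Trp53-intact libraries. The level was 7.47-fold lower in Trp53-deleted than in Trp53-intact without ADT (log2 ratio -2.84) and 2.41-fold lower with ADT (log2 ratio -1.25).

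With ADT Cxcl3 in neutrophil-like cells was 1.75-fold lower in the Trp53-intact pair and 1.77-fold higher (1.46 to 2.15) in the Trp53-deleted pair. The share of cells with a UMI was 24.9%, 20.4%, 5.19% and 10.4%. Clusters 7 (883, 465, 138 and 192 CPM) and 19 (428, 365, 52.6 and 147 CPM) had the same order of libraries. A close paralog can share reads with Cxcl2, and the Cxcl3 level is uncertain to the extent that the counting could not tell them apart.

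In luminal progenitor-like cells Cxcl3 was at 25.2, 48.2, 15.2 and 68.5 CPM. Both ADT libraries were above both libraries without ADT, by 1.91-fold (1.69 to 2.16) in the Trp53-intact pair and 4.49-fold (3.75 to 5.39) in the Trp53-deleted pair. B-like cells held between 0.461 and 3.75 CPM. Luminal progenitor-like cells carried 12.7%, 20.4%, 43.6% and 30.4% of the library's Cxcl3 UMIs and neutrophil-like cells 49.7%, 63.6%, 44.9% and 21.9%.

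A few cells can set the level of so rare a transcript. In dendritic-like cells of Trp53-intact, 31 of 468 cells held all 781 UMIs (122 CPM) and 1 cell held 175 of them. The other 3 libraries stood at 13.1, 2.53 and 2.07 CPM. A small unnamed cluster led by Serpinb2, Retnlg, Ccr3 and Alox15, with 45 cells in Trp53-intact, held 1780 CPM of Cxcl3 on 73 UMIs.

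Cxcl1, also called KC, is the ligand that stroma and epithelium release on inflammatory stimulation. It was spread over stromal, endothelial, epithelial and myeloid classes. Fibroblast-like cells stood at 1062 CPM (1040 to 1083), 652 (638 to 667), 420 (409 to 431) and 202 (191 to 213). The intervals do not overlap, Trp53-intact was highest and Trp53-deleted ADT lowest.

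With ADT the fibroblast level of Cxcl1 was 1.63-fold lower in the Trp53-intact pair and 2.08-fold lower in the Trp53-deleted pair (log2 ratios -0.70 and -1.04). Trp53-deleted was lower than Trp53-intact by 2.53-fold without ADT and by 3.23-fold with ADT. The fibroblast-like class was held by different clusters. Cluster 27 had 932, 62, 1328 and 41 cells at 1254, 1139, 487 and 217 CPM, and cluster 11 had 839 cells in Trp53-intact ADT and 194 in Trp53-deleted ADT, at 746 and 225 CPM. Within clusters 27 and 11 the Trp53-deleted values given were below the Trp53-intact values, in cluster 27 with ADT on 41 cells. The ADT difference of the Trp53-intact pair was small in cluster 27. In Trp53-deleted ADT more fibroblast-like cells lay in clusters 25 (247 cells) and 26 (284 cells). Over all libraries these stood at 86.2 and 285 CPM, against 688 and 805 CPM in clusters 11 and 27. Whether the genotype difference holds within clusters 25 and 26 is not shown here. How far the makeup of the class sets the 3.23-fold difference with ADT was not tested.

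Myeloid classes also held less Cxcl1 in the Trp53-deleted libraries. Macrophage-like cells stood at 520, 317, 89.0 and 84.2 CPM. Neutrophil-like cells stood at 893, 316, 181 and 199 CPM. Dendritic-like cells stood at 416, 169, 170 and 68.8 CPM, and there Trp53-intact ADT and Trp53-deleted were level. B-like cells held between 9.68 and 41.3 CPM.

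Endothelial cells line the vessels through which neutrophils leave the blood. Endothelial-like cells held Cxcl1 at 318 CPM (291 to 348), 104 (85.3 to 125), 84.9 (66.3 to 107) and 194 (181 to 209). Trp53-intact ADT and Trp53-deleted overlap. The ADT library was lower in the Trp53-intact pair (log2 ratio -1.57) and higher in the Trp53-deleted pair (1.15).

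In luminal progenitor-like cells Cxcl1 stood at 170, 215, 59.4 and 121 CPM. Trp53-deleted was 2.87-fold lower than Trp53-intact without ADT (log2 ratio -1.44), and with ADT the log2 ratio was -0.80. With ADT in the Trp53-deleted pair it was 0.97, and 0.079 with a limit of 10% mitochondrial UMIs. The share of the library's Cxcl1 UMIs in fibroblast-like cells was 32.2%, 52.996%, 69.3% and 3.31%. In Trp53-deleted ADT the unnamed clusters carried 84.7%, since cluster 37 alone held 34381 Cxcl1 UMIs at 588 CPM. That cluster stood above the fibroblast-like cells of its own library, at 202 CPM, in this ligand.

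**Figure D2:**
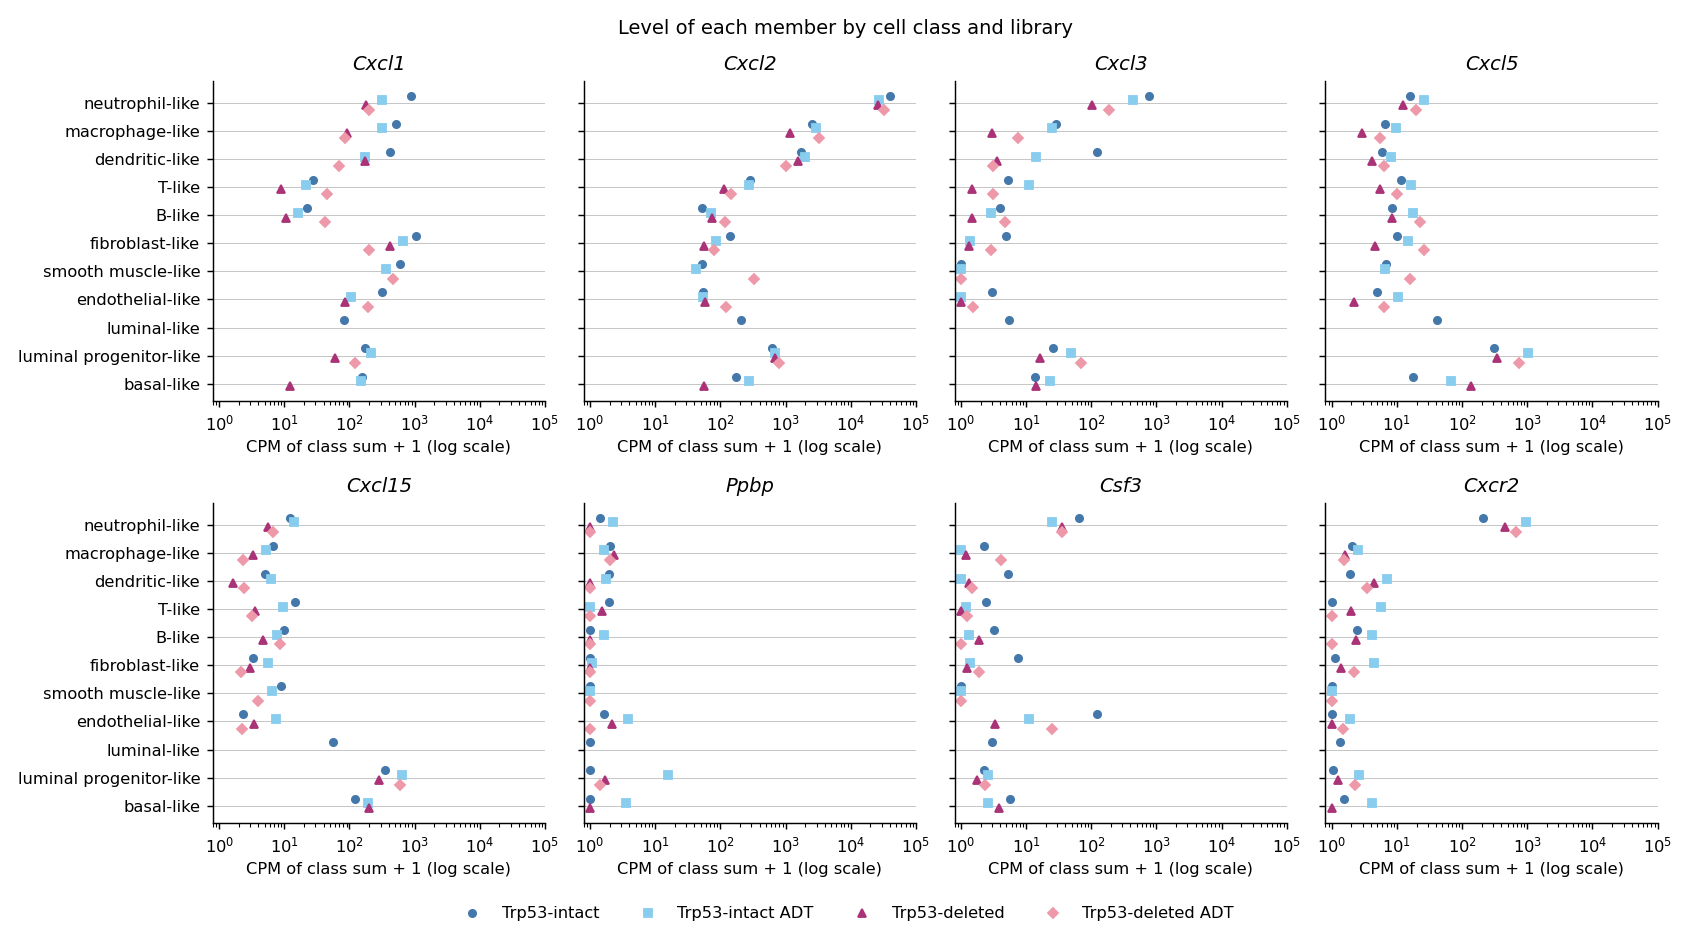
Level of each of the 8 members in CPM of the class sum plus 1 (log scale) in each class, with 1 point per library for sums of at least 50 cells. Cxcr2 stands out in neutrophil-like cells, Cxcl5 and Cxcl15 in luminal progenitor-like cells, Cxcl2 in neutrophil-like, macrophage-like and dendritic-like cells, and Cxcl1 is spread from fibroblast-like to myeloid classes.

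Cxcl5, also called LIX, is an epithelial ligand in many mouse tissues. Here it was held by luminal progenitor-like cells, the Krt4+ Psca+ epithelium, which carried 91.1%, 93.4%, 92.3% and 34.0% of its UMIs. In Trp53-deleted ADT a further 61.3% lay in unnamed clusters, with 5466 UMIs in cluster 37 at 93.4 CPM. The level in luminal progenitor-like cells was 304 CPM (296 to 312), 1022 (1004 to 1040), 345 (335 to 355) and 746 (721 to 771).

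Both ADT libraries were above both libraries without ADT. The level was 3.36-fold higher with ADT in the Trp53-intact pair (3.26 to 3.47, log2 ratio 1.73) and 2.16-fold higher in the Trp53-deleted pair (2.07 to 2.26, log2 ratio 1.10). Between genotypes the log2 ratio was 0.18 without ADT and -0.45 with ADT, both under the size called. B-like cells held 7.31, 16.5, 7.38 and 21.3 CPM.

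Cxcl15, also called lungkine, is known from mucosal epithelium of the lung and other tracts. It had nearly the same distribution, with 87.5%, 89.5%, 89.1% and 92.5% of its UMIs in luminal progenitor-like cells. Its level there was 353 CPM (345 to 361), 628 (614 to 643), 282 (273 to 292) and 603 (581 to 626). The ADT libraries were again the higher ones, by 1.78-fold (1.72 to 1.84) in the Trp53-intact pair and 2.13-fold (2.03 to 2.24) in the Trp53-deleted pair. Unlike Cxcl5, Cxcl15 was low in cluster 37, with 15 UMIs. Basal-like cells held 122, 191 and 201 CPM of Cxcl15 in the first 3 libraries, and luminal-like cells of Trp53-intact 55.0 CPM.

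The class held cells of very unequal depth. Cluster 13, led by Psca, Wfdc2 and Cyp2f2, had 387, 241, 245 and 115 cells with a median of 36312, 31859, 40250 and 24279 UMIs. Cluster 0, led by Gm26917 and with Krt18 and Nupr1 among its leading genes, had 182, 697, 149 and 264 cells. Their median was 2499.5, 1225, 1548 and 1488.5 UMIs. Cluster 0 thus made up most of the class in both ADT libraries only.

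Within cluster 13 alone Cxcl5 stood at 316, 1118, 389 and 813 CPM and Cxcl15 at 368, 689, 317 and 650 CPM, so the ADT libraries were higher there too. Cluster 0 held less, with Cxcl5 at 39.1, 415, 24.7 and 264 CPM. The share of luminal progenitor-like cells with a Cxcl15 UMI was 52.2%, 40.5%, 51.5% and 45.9%, lower in both ADT libraries, where the level was higher. After thinning to 1000 UMIs it was 19.2%, 26.7%, 15.7% and 28.1%, and both ADT libraries were then the higher ones. The Cxcl5 share was 32.3%, 45.0%, 35.5% and 38.5% before and 10.3%, 29.8%, 14.8% and 22.3% after thinning. The share of B-like cells with a UMI was at most 7.18% for Cxcl5 and 5.66% for Cxcl15.

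Cxcl5 was concentrated in few cells. The tenth of luminal progenitor-like cells with the most Cxcl5 UMIs held 90.4%, 86.7%, 87.8% and 88.1% of them, and these are also among the deepest cells. The highest single cell had 610, 483, 321 and 292 Cxcl5 UMIs. Cells with both Cxcl5 and Cxcl15 made up 27.6%, 28.7%, 27.7% and 28.8% of the class. In basal-like cells of Trp53-deleted the Cxcl5 level of 137 CPM came from 1 cell with 232 of 243 UMIs.

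**Figure D3:**
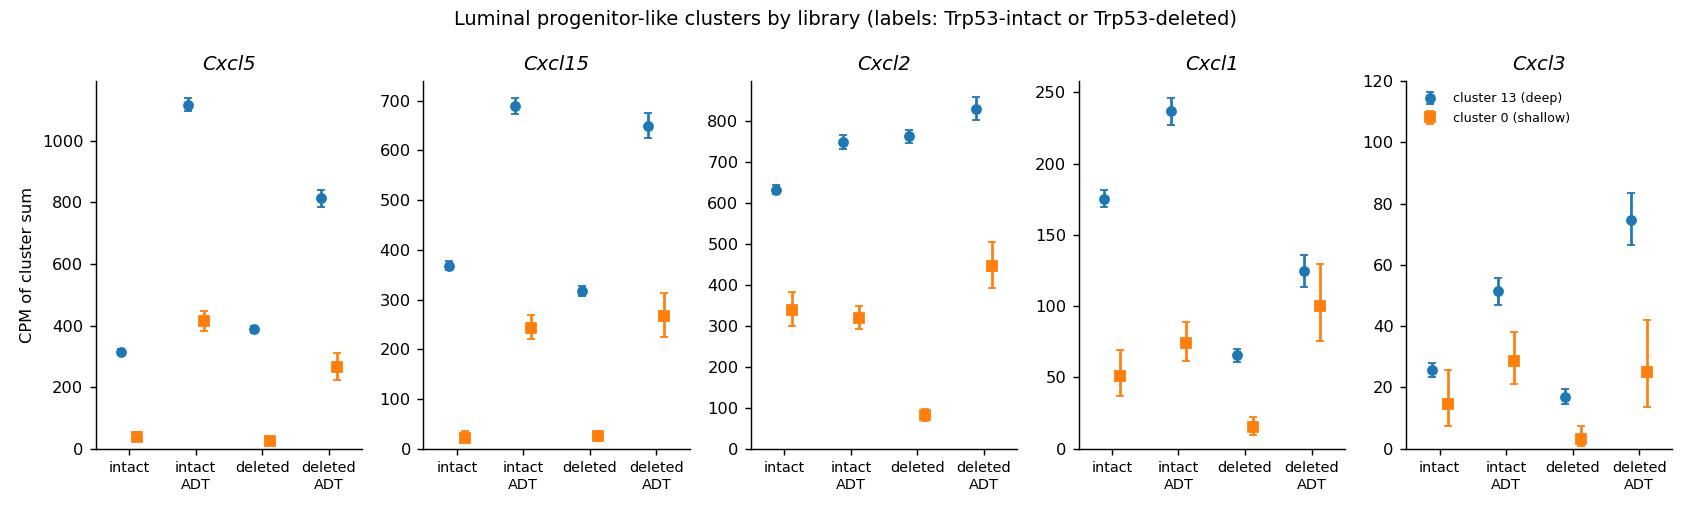
Level of 5 ligands in CPM of the cluster sum (95% Poisson intervals) in the luminal progenitor-like clusters 13 (deep) and 0 (shallow), by library. Cxcl5 and Cxcl15 were higher in both ADT libraries in both clusters, and cluster 0 lay below cluster 13 for each of the 5 ligands.

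Ppbp gives rise to the platelet chemokine NAP-2 and is known from megakaryocytes and platelets. It was rare, with 20, 39, 14 and 26 cells having a UMI, of which 0, 5, 1 and 9 also had a UMI of any of 7 platelet genes. Macrophage-like cells held between 0.647 and 1.37 CPM. The 14.6 CPM in luminal progenitor-like cells of Trp53-intact ADT came from 176 UMIs in 16 cells, of which 1 cell held 160. The value is thus that of 1 cell.

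Csf3 was rare as well, and its holder differed by library. In endothelial-like cells it stood at 124 CPM (107 to 143), 10.2 (5.08 to 18.2), 2.39 (0.290 to 8.64) and 24.3 (19.7 to 29.7). Trp53-intact was the high library, with 187 UMIs in 13 of 149 cells. The 11 UMIs of Trp53-intact ADT came from 1 cell, and Trp53-deleted had 2 UMIs.

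Neutrophil-like cells, the target of this factor, also held Csf3, at 63.2, 23.9, 34.7 and 34.1 CPM on 154, 98, 69 and 42 UMIs. These lay in 4.77%, 3.28%, 2.66% and 2.54% of the cells. Trp53-intact was again highest, and the intervals of the other 3 libraries overlap. Neutrophil-like cells carried 28.8%, 56.6%, 72.6% and 9.05% of the Csf3 UMIs of a library, and endothelial-like cells 35.0% in Trp53-intact and 20.5% in Trp53-deleted ADT. In Trp53-deleted ADT the unnamed cluster 37 held more Csf3 UMIs than either class, with 171 UMIs at 2.92 CPM. Macrophage-like cluster 9 held 75 UMIs there, against 95 in endothelial-like and 42 in neutrophil-like cells.

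**Figure D4:**
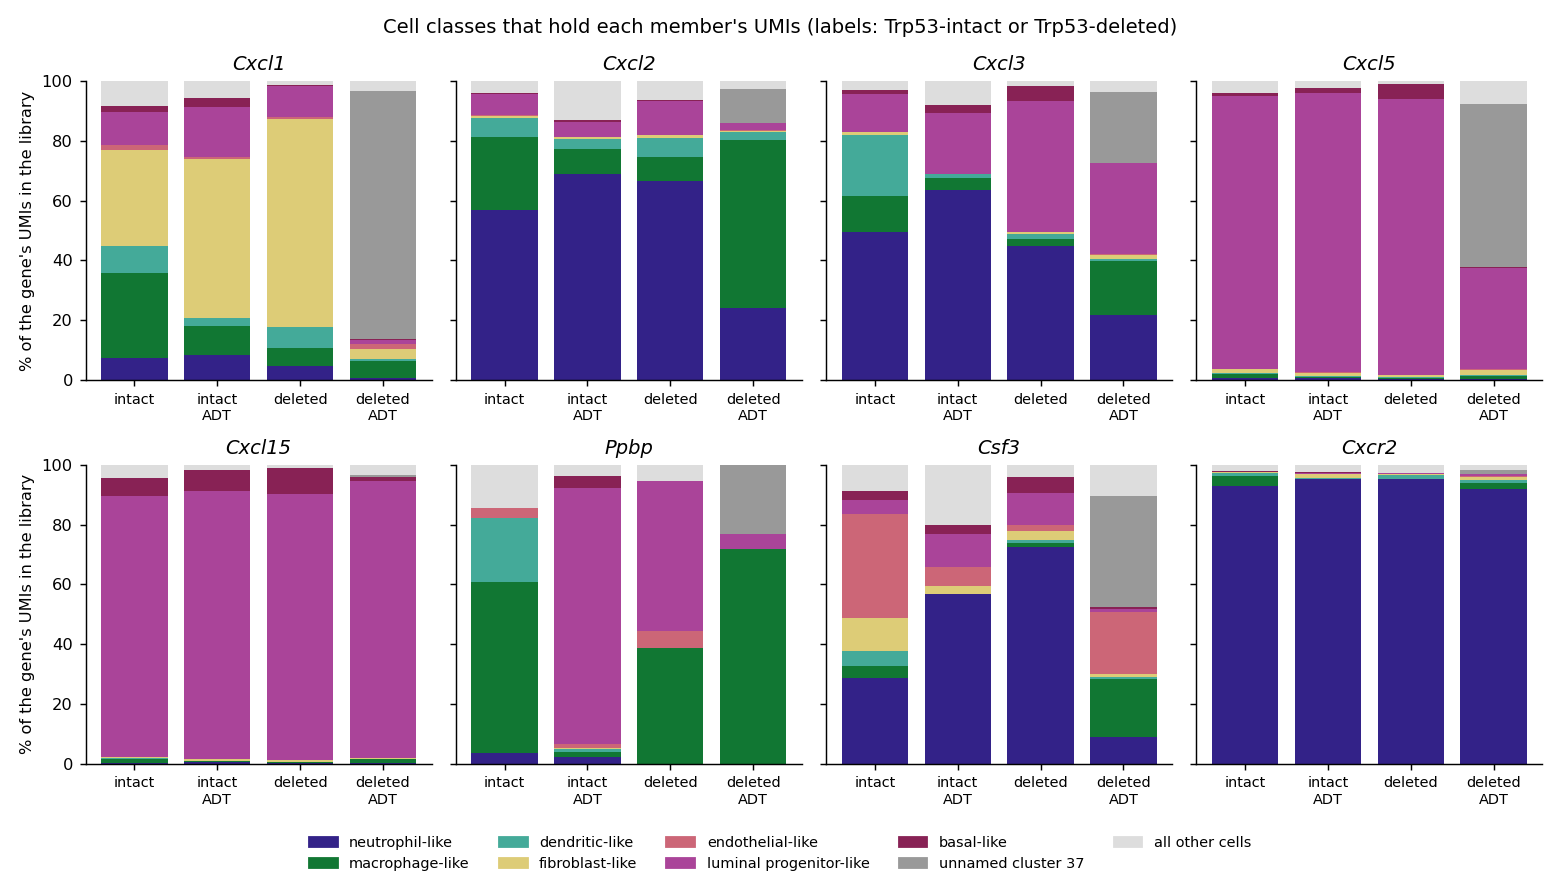
Share of each member's UMIs by class of cells in each library (stacked bars, % of the gene's UMIs). Cxcr2 is held by neutrophil-like cells and Cxcl15 by luminal progenitor-like cells in all 4 libraries, whereas in Trp53-deleted ADT most Cxcl2 is in macrophage-like cells and most Cxcl1 and Cxcl5 in the unnamed cluster 37.

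The 6 ligands were then summed. In epithelial-like cells (the basal-like, luminal-like and luminal progenitor-like classes together) the sum was 1208 CPM (1195 to 1222), 2221 (2197 to 2244), 1261 (1243 to 1279) and 2233 (2191 to 2275). Both ADT libraries were higher, with a log2 ratio of 0.88 in the Trp53-intact pair and 0.82 in the Trp53-deleted pair, while the genotypes differed by 0.06 without and 0.01 with ADT. The Trp53-intact epithelium included 1196 shallow luminal-like cells, of which the other libraries had 13, 37 and 2. In luminal progenitor-like cells alone the sum was 1473, 2619, 1384 and 2322 CPM.

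The summed epithelial level and the neutrophil share did not have the same order of libraries. Trp53-deleted ADT had the smallest neutrophil share and an epithelial sum level with that of Trp53-intact ADT, the library with the largest. Over all cells the ligand sum was 2825, 3606, 2023 and 1759 CPM, and 1529, 1343, 862 and 1445 CPM with the neutrophil-like cells left out. With 4 libraries no relation between the 2 measures can be tested.

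Counted over the members, epithelial-like cells held 4 of 8 measured members at least 1.5-fold higher with ADT in the Trp53-intact pair and 0 lower, where 5.51% of all measured genes were that much higher and 5.18% lower. These were Cxcl5, Cxcl15, Cxcl3 and Ppbp, the last on the strength of 1 cell. Cxcl3 (log2 ratio 0.87) was under the size called in 1 alternative setting, with a lowest log2 ratio of 0.55. The median log2 ratio was 0.65 over the members and 0.05 over all genes. In the Trp53-deleted pair 4 of 6 measured members were higher and 0 lower, against 6.59% and 5.55% of all genes, with medians of 1.08 and -0.01. There the higher ones were Cxcl3 (log2 ratio 1.81), Cxcl5 (1.12), Cxcl1 (1.10) and Cxcl15 (1.06), while Cxcl2 stood at 0.37. Of these, Cxcl5, Cxcl1 and Cxcl15 were each under the size called in at least 1 alternative setting, with lowest log2 ratios of 0.54, 0.33 and 0.46.

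Between genotypes fewer members differed in the epithelial-like cells. Without ADT 0 of 6 measured members were higher and 1 lower, Cxcl1, where 2.2% and 3.6% of all genes were. With ADT 0 of 8 were higher and 2 lower, against 3.79% and 3.42%. These were Cxcl1, with a log2 ratio of -0.73 that was -0.34 with doublets kept, and Ppbp (0.409 against 12.1 CPM), on the strength of the 1 cell. The medians over the members were -0.12 and -0.05.

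In neutrophil-like cells more members were lower than higher in 3 of the 4 comparisons. With ADT in the Trp53-intact pair 1 of 7 measured members was higher, Cxcr2, and 3 lower, Cxcl1, Cxcl3 and Csf3, where 13.5% and 7.01% of all genes were. In the Trp53-deleted pair 1 of 6, Cxcl3, was higher and 0 lower, against 14.5% and 13.6%. Without ADT Trp53-deleted had 1 of 7 higher, Cxcr2, and 5 lower, against 22.3% and 5.67%. With ADT it had 0 of 7 higher and 3 lower, Cxcl1, Cxcl3 and Cxcl15, against 18.6% and 7.93%. The lower genes without ADT were Cxcl1, Cxcl2, Cxcl3, Cxcl15 and Csf3, and for Cxcl15 the level in neutrophil-like cells was near that of B-like cells. Cxcl2 and Cxcl15 without ADT and Cxcl1 with ADT were under the size called in at least 1 alternative setting. Their log2 ratios there reached -0.45, -0.32 and -0.53.

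Other genes of neutrophil recruitment were followed through a list of inducers, their receptors, NF-kB factors, other attractants and adhesion molecules, of which 65 could be looked up. In epithelial-like cells 11 of 57 measured genes were higher and 2 lower with ADT in the Trp53-intact pair, where 5.51% and 5.18% of all measured genes were. There were 12 of 53 higher and 2 lower in the Trp53-deleted pair, against 6.59% and 5.55%. The largest ratios in the Trp53-intact pair were those of S100a9 (49.2 against 14.03 CPM), S100a8 (34.5 against 10.8 CPM) and Saa1 (27.6 against 10.5 CPM). S100a8 and S100a9 are abundant in neutrophils, and in luminal progenitor-like cells they were no higher than in B-like cells of the same library (S100a8 at 7.62, 34.4, 8.31 and 26.0 against 10.2, 45.8, 24.9 and 32.5 CPM). Il1b, also abundant in neutrophil-like cells, stood at 13.42, 49.985, 15.322 and 25.6 CPM in luminal progenitor-like cells. In B-like cells it was higher, at 28.514, 63.94, 51.634 and 76.252 CPM. How far free RNA from neutrophils adds to the list counts of epithelial-like cells was not tested.

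Saa1 and Saa3, acute-phase proteins that attract neutrophils, set Trp53-deleted apart. Saa1 stood at 119 CPM in its epithelial-like cells against 10.5 CPM in Trp53-intact, 27.6 CPM in Trp53-intact ADT and 9.81 CPM in Trp53-deleted ADT. Saa3 stood at 30.4 CPM there against 5.68, 10.05 and 0.817 CPM. Cebpb, a transcription factor that acts downstream of interleukin 17 and interleukin 6, was at 195 CPM in Trp53-deleted ADT against 95.1 CPM in Trp53-deleted. Lcn2, an iron-binding protein of neutrophils and inflamed epithelium, was at 1493 CPM in Trp53-deleted ADT against 826 CPM in Trp53-intact ADT. Between genotypes 2 of 56 measured list genes were higher and 5 lower without ADT, where 2.2% and 3.6% of all genes were. With ADT 3 of 53 were higher and 7 lower, against 3.79% and 3.42%.

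In neutrophil-like cells 12 of 54 measured list genes were higher and 6 lower with ADT in the Trp53-intact pair, where 13.5% and 7.01% of all genes were. The Trp53-deleted pair had 4 of 52 higher and 15 lower, against 14.5% and 13.6%. Il17ra, the receptor chain for interleukin 17A, stood at 234 CPM in Trp53-intact ADT against 76.3 CPM in Trp53-intact. Nfkb1, a subunit of NF-kB, stood at 167 against 419 CPM. In the Trp53-deleted pair Tnf (566 against 1414 CPM) and Tnfaip3, an inhibitor of NF-kB signalling (556 against 1496 CPM), were lower with ADT. None of the 11 measured genes of the NF-kB and mRNA control group was higher there and 6 were lower, with a median log2 ratio of -0.72 against -0.01 over all genes. That group is 1 of 7 on the list, and the counts of the other groups are not given here.

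Between genotypes the list counts in neutrophil-like cells were 12 of 53 higher and 6 lower without ADT, where 22.3% and 5.67% of all genes were. With ADT they were 6 of 54 higher and 17 lower, against 18.6% and 7.93%. Fpr1, the receptor for formylated peptides, was lower in Trp53-deleted both without ADT (63.8 against 144 CPM) and with ADT (68.1 against 187 CPM). Nfkbiz, a nuclear partner of NF-kB, stood at 824 CPM in Trp53-deleted ADT against 2134 CPM in Trp53-intact ADT. Il1b, an inducer of these ligands, was abundant in neutrophil-like cells of each library, at 13565, 20131, 16557 and 15259 CPM, and Il17a was held by T-like cells at 297, 24.5, 15.6 and 124 CPM.

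The genes most like each member were taken by Pearson's r of log2(CPM + 5) over 52 sums of class and library, which share libraries and depth, so the values describe these sums only. Cxcr2 was nearest to Gm5483 (0.98), Nlrp12 (0.97) and Wfdc21 (0.96), and Cxcl2 to Cd14 (0.94), Tnf (0.93) and Il1a (0.91). Cxcl5 was nearest to Cxcl15 (0.92), Atp2c2 (0.92) and Adgrf4 (0.92). Cxcl15 was nearest to Cyp2f2 (0.97), Krt4 (0.96) and Gpx2 (0.95), all led by luminal progenitor-like cells.

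Cxcl1 was nearest to Atf3, Egr1 and Ifitm2 (0.80 each), of which Atf3 and Egr1 are immediate-early genes that also respond to tissue dissociation, and the part of dissociation in the Cxcl1 level was not tested. Cxcl3 was nearest to Hcar2 (0.86), Slc7a11 (0.86) and Il1rn (0.83), and Csf3 to Upp1 (0.79), Olfr56 (0.79) and Kcnj2 (0.78). Ppbp, nearest to Gm7714 (0.80), rests on few cells. Among the members, r was 0.81 for Cxcl2 with Cxcl3, 0.72 for Cxcl2 with Cxcr2, 0.42 for Cxcl1 with Cxcl2 and 0.01 for Cxcl5 with Cxcr2.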

How the data were processed

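The members and all gene lists were chosen with earlier results of these data known. The authors deposited raw UMI counts per gene and barcode for all 4 libraries in 1 matrix (30905 genes, 36326 barcodes), not normalized. The submitters' processing notes name Cell Ranger 2.1.1 and mm10, while the file header gives version 3.1.0. No source says how barcodes had been selected. A further part of the genotype, common to the 4 groups, is not reported here.

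Libraries held 90659173, 63803901, 58088678 and 148030357 UMIs, and 128 barcode sequences occurred in more than 1 library. Filters kept barcodes of 500 or more UMIs and 200 or more genes with up to 20% mitochondrial UMIs. Between 8.39% and 25.7% of barcodes exceeded that mitochondrial limit. Scrublet's own cutoff called 2, 33, 1 and 1 doublets and was judged not to have worked. The cells with the top scores were removed in its place, at a share of 0.008 per 1000 barcodes, which took out 609, 529, 356 and 816 cells. With scanpy 1.11.5, 2000 variable genes (members and recruitment list left out), 40 principal components, 20 neighbours and Leiden resolution 1 gave 38 clusters. These were named by 22 marker lists with a score of at least 1, at least 3 detected markers and no lead by genes of another type. The thresholds were set after clusters were seen. This gave 18 classes and 8 unnamed clusters, and the names are rebuilt, not the authors'.

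Each class of a library was summed and scaled to CPM. A gene was measured if the pair of libraries had 20 or more UMIs of it, and counted as higher or lower at 1.5-fold with a pseudocount of 5 CPM. Intervals at the 95% level are exact: Poisson for CPM, Clopper-Pearson for shares and conditional binomial for ratios without the pseudocount. A fold quoted with such an interval is this plain ratio, while log2 ratios include the pseudocount and understate low genes. Members other than Ppbp were given in full in the class with the highest level. Other classes of at least 50 cells with 20 UMIs of a member were given in part, so a class left out may hold the gene. Left out, for example, were Cxcl1 in smooth muscle-like cells (829 UMIs) and Cxcl3 (757 UMIs) and Csf3 (111 UMIs) in macrophage-like cells. From the recruitment list up to 3 genes with the largest ratio each way were named. Csf3r, Il1b and Il17a were named after their values were seen. For likeness, the 3 genes with the highest r among those with at least 200 UMIs were taken. Alternatives covered doublets, resolution, variable genes, depth, mitochondrial limit, clustering of each library on its own, pseudocount, free RNA, low counts and thinning. Gene positions are from GENCODE M21 and promoters from RefSeq. The counting scripts were tested on simulated data.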

Additional observations from a re-analysis of the deposited data

Results flagged for a closer look

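In 4 results the ADT library lay on opposite sides of its partner in the genotype pairs. With 1 library per group the difference between the pairs was not tested. The neutrophil-like share of cells differed by 5.81 points in the Trp53-intact pair and by -9.44 points in the Trp53-deleted pair. Csf3 in endothelial-like cells had log2 ratios of -3.08 and 1.99, where the ADT value of the first pair is that of 1 cell and the Trp53-deleted value rests on 2 UMIs. Cxcl1 in endothelial-like cells had log2 ratios of -1.57 and 1.15. Cxcl3 in neutrophil-like cells had log2 ratios of -0.80 and 0.79.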

How the results depend on the processing

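No paired analysis was possible because each group has 1 library, and leaving out a replicate was not possible for the same reason. Counting the Prok2-led cluster, taking immune-like cells as denominator and leaving out the shallow cluster 0 were chosen after seeing the data.

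For the neutrophil-like share with ADT in the Trp53-intact pair (5.81 points), the difference was 9.56 with members among the variable genes, 7.05 from 1000 UMIs, 4.69 with each library clustered on its own, 9.56 with the Prok2-led cluster and 13.01 among immune-like cells. In the Trp53-deleted pair (-9.44) these settings gave -10.5, -7.45, -10.6, -10.6 and -16.8, a limit of 10% mitochondrial UMIs -12.1 and resolution 2 only -0.75. For Trp53-deleted against Trp53-intact without ADT (4.99) resolution 2 turned the sign, to -3.72, as 441 Trp53-deleted cells lost their name. The values were 2.03 from 1000 UMIs, 6.72 at the mitochondrial limit and 6.40 among immune-like cells. With ADT (-10.3) they were -14.5 with members among the variable genes, -12.5 from 1000 UMIs, -11.9 at the mitochondrial limit, -14.5 with the Prok2-led cluster and -23.4 among immune-like cells.

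The epithelial ligand sum with ADT in the Trp53-intact pair (log2 ratio 0.88) was 0.60 with doublets kept, 0.60 with members among the variable genes, 0.93 from 1000 UMIs, 0.81 with own clustering, 0.92 with the B-like level taken off and 0.93 without cluster 0. In the Trp53-deleted pair (0.82) it was 0.57, 0.36, 0.58 and 0.48 under the first 4 of these, 0.58 at the mitochondrial limit and 0.77 without cluster 0. Between genotypes without ADT (0.06) it was 0.15 with doublets kept, 0.027 at resolution 2, 0.21 from 1000 UMIs, 0.0032 with own clustering, 0.24 at the mitochondrial limit and 0.17 without cluster 0. With ADT (0.01) the sign depended on the setting, at 0.13 with doublets kept, -0.18 with members among the variable genes, -0.14 from 1000 UMIs, -0.33 with own clustering, -0.079 at the mitochondrial limit and -0.048 with the B-like level taken off. The cause of these shifts was not tested.

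Luminal progenitor-like cells are also part of the epithelial-like class, so the member ratios counted next overlap and are not separate results, and some rest on very few UMIs. Of member ratios past 1.5-fold, 51 were recomputed, with 428 alternative values, of which 428 had the same direction and 24 were no longer past 1.5-fold. These included, in luminal progenitor-like cells with ADT in the Trp53-deleted pair, Cxcl5 (0.43 to 1.15), Cxcl15 (0.38 to 1.15) and Cxcl1 (0.079 to 1.05, lowest with a limit of 10% mitochondrial UMIs). Thinning to 1000 UMIs moved 19 of the shares of cells with a UMI and left 1 within its interval. Since thinning deeper cells lowers such shares in itself, these counts say nothing of the order of libraries.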
